A study of Mus musculus with 25 samples.

Results

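The aminoacyl-tRNA synthetase genes were followed across 6 groups of mouse thymic invariant natural killer T (iNKT) cells. The array's unit is the transcript cluster, with 1 summarised value on each array, and 55 symbols have several clusters. A gene was a member when the probe table gave its cluster a single symbol of synthetase form, such as Cars, Mars1, Eprs or Rars2. This gave 29 members among 22206 transcript clusters. Of these, 16 are named as cytosolic enzymes (Cars, Eprs, Gars, Hars, Iars, Kars, Lars, Mars1, Nars, Qars, Rars, Sars, Tars, Vars, Wars and Yars). The other 13 carry the ending 2 and are named as mitochondrial enzymes (Aars2, Cars2, Hars2, Iars2, Lars2, Mars2, Nars2, Rars2, Sars2, Tars2, Vars2, Wars2 and Yars2). Each member had 1 cluster, and no measured level was used to choose it.

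Aminoacyl-tRNA synthetases join each amino acid to its matching transfer RNA, the step that supplies the ribosome with charged tRNA. Most amino acids have separate nuclear genes for the cytosolic and the mitochondrial enzyme, although the Gars and Kars genes encode both forms. Several cytosolic members (Eprs, Iars, Kars, Lars, Mars1, Qars and Rars) sit together in the multisynthetase complex on the scaffold proteins Aimp1, Aimp2 and Eef1e1. The other cytosolic members act outside it. Their transcripts are known as targets of the transcription factors ATF4, which acts when amino acids are short, and MYC, which acts in growing cells.

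The cells came from C57BL/6 mice and were sorted from CD8-bead-enriched thymocytes as TCR beta positive, CD24 negative and positive for the CD1d tetramer loaded with PBS57. Cells of S1 lacked CD44 and NK1.1 and those of S2 had CD44 only, and the 2 stages were measured together as S1_S2, while S3 cells had both markers. WT mice gave 6 arrays of S1_S2 and 7 of S3. Mst1KO mice, which lack the kinase MST1 encoded by Stk4, gave 4 arrays of S1_S2 and 5 of S3, and dKOMst mice, lacking Mst1 and Mst2, gave 2 arrays of S1_S2 and 1 of S3. The sources used here do not say how each gene was deleted, whether a Cre was used or how old the mice were. The labels do not say whether arrays of a group came from separate mice, so the p-values measure the spread between arrays.

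The array titles carry numbers that fall into 2 sets with a gap between them, called set 1 (16 arrays) and set 2 (9 arrays) here, and the labels name no batch. WT arrays lay in both sets (3 and 3 of S1_S2, 4 and 3 of S3), all 9 Mst1KO arrays in set 1 and all 3 dKOMst arrays in set 2. Each difference below was therefore fitted with the set as an additive term, and values within a set are given beside it. The set term passed the test for 6.13% of all clusters and for 8 of the 29 members (Kars, Mars1, Qars, Tars, Vars, Cars2, Mars2 and Rars2), all 8 higher in set 2. Y-linked transcripts were present on 21 arrays and absent from 4, which were Mst1KO replicates 3 and 4 of each stage. The T cell genes Cd3d and Zbtb16 were bright on every array, and Cd24a read below the median of the negative control probes on all 25. Lists of B cell and thymic epithelium markers had array means of 6.24 to 6.85 on the log2 scale, and the myeloid list 5.86 to 6.47, beside negative control medians of 6.19 to 6.59. The gamma-delta T cell list lay higher, at 8.05 to 9.16, as did the 2 measured erythroid markers at 7.32 to 8.03. All 4 gamma-delta genes lay above the negative control median on all arrays. Stk4 was lower in Mst1KO than in WT at S1_S2 (9.31 ± 0.07, SD, n = 4, against 10.46 ± 0.19, n = 6; limma adjusted p = 0.00592). At S3 the Stk4 difference was -0.35 ± 0.15 (SE; limma adjusted p = 0.152), and at S1_S2 in dKOMst it was -0.74 ± 0.20 (limma adjusted p = 0.0829), so these groups are called by their labels.

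All 29 members read above the negative control median of their array on all 25 arrays, which 56% of all clusters did. The member nearest that median was Wars2, the mitochondrial tryptophan enzyme, whose dimmest array lay 0.04 above it, followed by Rars2 at 0.40. Probes of different genes bind with different strength, so each gene is compared only with itself across arrays. To show the family in each array, every member was centred on its mean over the 25 arrays and the centred values were averaged within each class. The cytosolic mean was -0.10 ± 0.13 (SD, n = 7) in WT S3 and 0.08 ± 0.04 (n = 5) in Mst1KO S3. Within set 1 the 5 Mst1KO S3 arrays lay between 0.01 and 0.13 and the 4 WT S3 arrays between -0.27 and -0.09, so these did not overlap, but the 3 WT S3 arrays of set 2 lay at -0.00 to 0.05. The mitochondrial mean was -0.10 ± 0.09 (n = 7) in WT S3 and -0.01 ± 0.03 (n = 5) in Mst1KO S3, and within set 1 it was also lower on all 4 WT arrays (-0.23 to -0.09) than on the 5 Mst1KO arrays (-0.04 to 0.02).

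**Figure D1:**
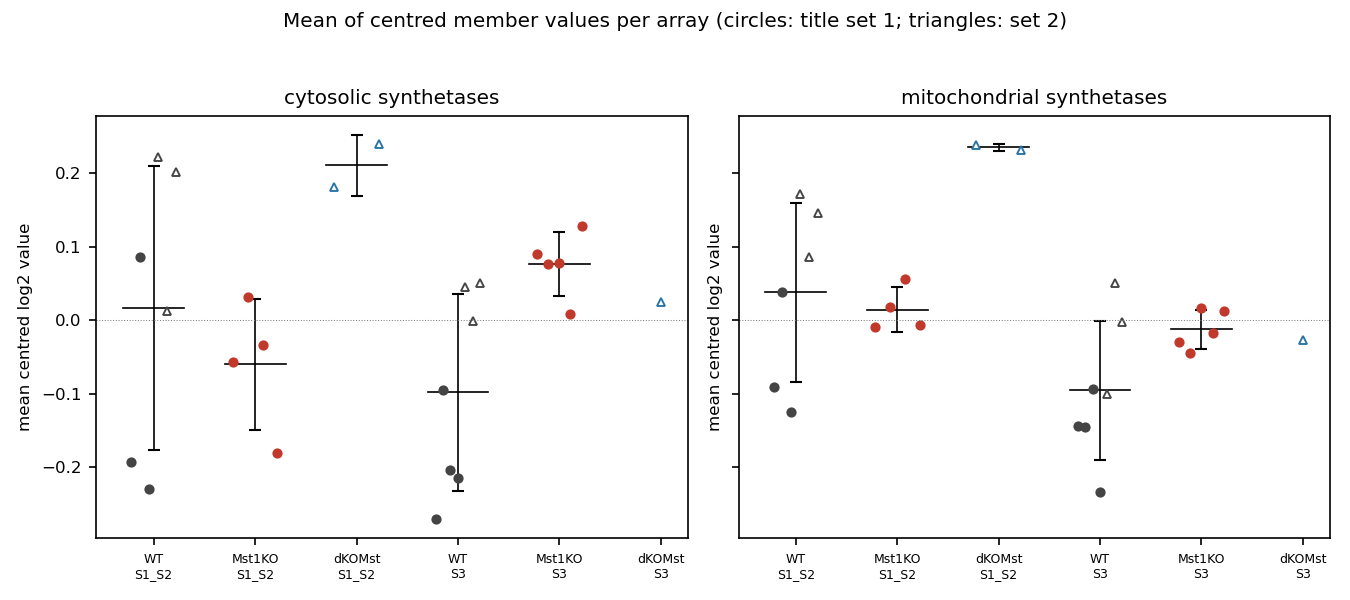
Mean centred log2 value of the 16 cytosolic (left) and 13 mitochondrial (right) synthetases on each array, by group; circles are set 1, triangles set 2, and horizontal lines with bars are the group mean and SD. The 5 Mst1KO S3 circles lie above the 4 WT S3 circles in both classes. The WT means at both stages are higher in set 2 than in set 1. Single WT arrays of the sets overlap for the cytosolic class at S1_S2 and the mitochondrial class at S3. They do not overlap for the cytosolic class at S3 or the mitochondrial class at S1_S2.

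Promoters of 4 members are shown first, because ATF4 and MYC are both known to act on this family. RefSeq's promoter table (GRCm38.p6, 250 bases before to 50 after each start) held 21 of the 29 members. It does not list Cars, Hars, Hars2, Lars, Nars, Rars, Vars and Wars. The letters TGATGNAA, the core of the site that ATF4 shares with C/EBP partners, were found on either strand in 4 of the 21 members (Gars, Iars, Tars and Yars) and in 4.51% of 27025 genes of the table. The stricter form TGATGCAA, which every TGATGNAA count includes, was in 3 of 21 (Iars, Tars and Yars) and in 1.03% of genes. CACGTG, the E-box that MYC and other factors bind, was in 2 of 21 (Iars and Tars) against 8.09% of genes. The cell-cycle motif of E2F factors was found as TTTCCCGC in 2 of 21 (Rars2 and Sars2) against 1.24% of genes, and as TTTGGCGC in 0 of 21 against 0.585%. The windows below run from 90 bases before the start to 25 bases from it, 5′ to 3′ on the gene's strand, with TGATGNAA or CACGTG matches on either strand in capitals. Iars and Tars are shown because each holds both motifs and was called at S3, Gars as the TGATGNAA match whose call fell just short, and Mars1 as a called member whose window holds neither. Yars, which holds TGATGCAA, was not called at S3 (Mst1KO minus WT 0.36) and its window is not shown. The windows were thus chosen with the calls known, and a link between motif and call was not tested. The Iars window is chr13:49682040-49682154 on the plus strand, the Tars window chr15:11399634-11399748 on the minus strand, the Gars window chr6:55037911-55038025 on the plus strand and the Mars1 window chr10:127311762-127311876 on the minus strand.
Iars: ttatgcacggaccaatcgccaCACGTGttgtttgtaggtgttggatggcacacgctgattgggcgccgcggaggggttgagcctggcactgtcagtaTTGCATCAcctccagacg
Tars: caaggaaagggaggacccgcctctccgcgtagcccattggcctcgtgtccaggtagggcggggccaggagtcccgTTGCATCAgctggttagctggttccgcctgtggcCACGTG
Gars: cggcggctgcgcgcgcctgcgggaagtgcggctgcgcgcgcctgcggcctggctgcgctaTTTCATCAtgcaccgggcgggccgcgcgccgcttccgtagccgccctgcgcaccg
Mars1: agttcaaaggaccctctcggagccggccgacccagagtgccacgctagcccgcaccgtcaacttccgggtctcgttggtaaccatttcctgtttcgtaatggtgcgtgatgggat

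At S3, 5 of the 29 synthetases were higher in Mst1KO than in WT and none was lower, with Cars, the cytosolic cysteine enzyme, 1.85-fold higher. The others were Iars (isoleucine, 1.36-fold), Mars1 (methionine, 1.34-fold), Nars (asparagine, 1.33-fold) and Tars (threonine, 1.31-fold), and all 5 are cytosolic. Over all clusters, 3.73% were called higher and 2.64% lower in this comparison (limma, adjusted p under 0.05, Benjamini-Hochberg over all clusters, here and below). At an unadjusted p under 0.05, 12 members passed, all 12 higher (23.6% of all clusters passed in either direction, 2191 higher and 3053 lower). The estimate was above 0 for 24 of 29 members, against 39.5% of all clusters. The median difference was 0.19 on the log2 scale for the members and -0.05 for all clusters. When each array was centred on its median, the calls over all clusters shifted from 829 higher and 586 lower to 1034 higher and 382 lower, and 7 members were called, all 7 higher. These are bulk RNA samples, in which a different share of cell states and a different amount of transcript per cell cannot be told apart.

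Cars read 8.73, 8.78, 8.49, 8.29 and 8.93 on the 5 Mst1KO S3 arrays. On the WT S3 arrays of set 1, where all Mst1KO arrays lie, it read 7.56, 7.75, 7.94 and 7.62, and on those of set 2 it read 7.97, 8.10 and 8.67. Every Mst1KO array exceeded the WT arrays of its own set, while 1 WT array of set 2 reached into the Mst1KO range. The fitted difference was 0.89 ± 0.16 (SE; 95% interval 0.56 to 1.22; limma adjusted p = 0.00214) and 0.93 within set 1 (limma adjusted p = 0.00144).

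Nars, which charges the asparagine tRNA, read 10.94, 10.97, 10.92, 10.82 and 10.93 in Mst1KO S3. It read 10.41, 10.58, 10.43 and 10.42 in WT S3 of set 1, and 10.64, 10.82 and 10.82 in WT S3 of set 2. The spread among Mst1KO arrays (SD 0.06) was small beside the difference of 0.41 ± 0.08 (SE; limma adjusted p = 0.00364). Cars and Nars passed the test when any 1 array of the groups compared was left out and under all 11 other settings.

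Mars1, the methionine enzyme of the multisynthetase complex, read 10.67, 10.56, 10.69, 10.73 and 10.83 in Mst1KO S3. The WT S3 arrays read 10.18, 10.37, 10.41 and 10.19 in set 1 and 10.68, 10.41 and 10.48 in set 2. Its difference was 0.43 ± 0.09 (SE; limma adjusted p = 0.00467) and 0.41 within set 1 (limma adjusted p = 0.0193). Without the set term it was 0.31, and the call was lost (limma adjusted p = 0.0894).

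Iars, also of the complex, read 9.52, 9.45, 9.59, 9.60 and 9.62 in Mst1KO S3. In WT S3 it read 8.96, 9.39, 9.15 and 9.03 in set 1 and 8.89, 8.66 and 9.29 in set 2, so all 7 WT arrays lay below all 5 Mst1KO arrays. The difference was 0.45 ± 0.11 (SE; limma adjusted p = 0.0197), and 0.43 without Mst1KO S3 replicate 5, where the adjusted p rose to 0.05 and the call was lost. It was lost as well with the arrays of the compared groups only (0.42, limma adjusted p = 0.0902), under quantile normalization (0.38, limma adjusted p = 0.0534) and with Y-linked signal as a term (0.41, limma adjusted p = 0.0592).

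Tars, which charges the threonine tRNA, read 8.88, 8.91, 8.86, 8.82 and 9.06 in Mst1KO S3 and 8.53, 8.48, 8.22 and 8.61 in WT S3 of set 1. The WT S3 arrays of set 2 read 9.21, 9.07 and 9.09, as high as the highest Mst1KO array, and the call rested on the set term. The difference was 0.38 ± 0.10 with that term (SE; limma adjusted p = 0.0191), 0.45 within set 1 (limma adjusted p = 0.0217) and 0.16 with no such term (limma adjusted p = 0.602). The call was also lost without WT S3 replicate 3 (difference 0.31, limma adjusted p = 0.054) and without Mst1KO S3 replicate 5 (0.34, limma adjusted p = 0.0573).

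Gars, the glycine enzyme, fell just outside the threshold at 0.27 ± 0.08 (SE; limma adjusted p = 0.052), with Mst1KO S3 arrays between 10.87 and 11.23 and WT S3 arrays between 10.75 and 10.92. Within set 1 the Mst1KO and WT arrays did not overlap for 6 members (the 5 called and Gars), all 6 higher in Mst1KO, against 3.85% of all clusters with no overlap in that direction. No member was lower without overlap, where 4.64% of clusters were. Among the cytosolic enzymes not called, the estimates of Hars, Kars, Lars, Qars and Yars lay between 0.19 and 0.38, while those of Eprs, Rars, Sars, Vars and Wars lay between -0.01 and 0.09.

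**Figure D2:**
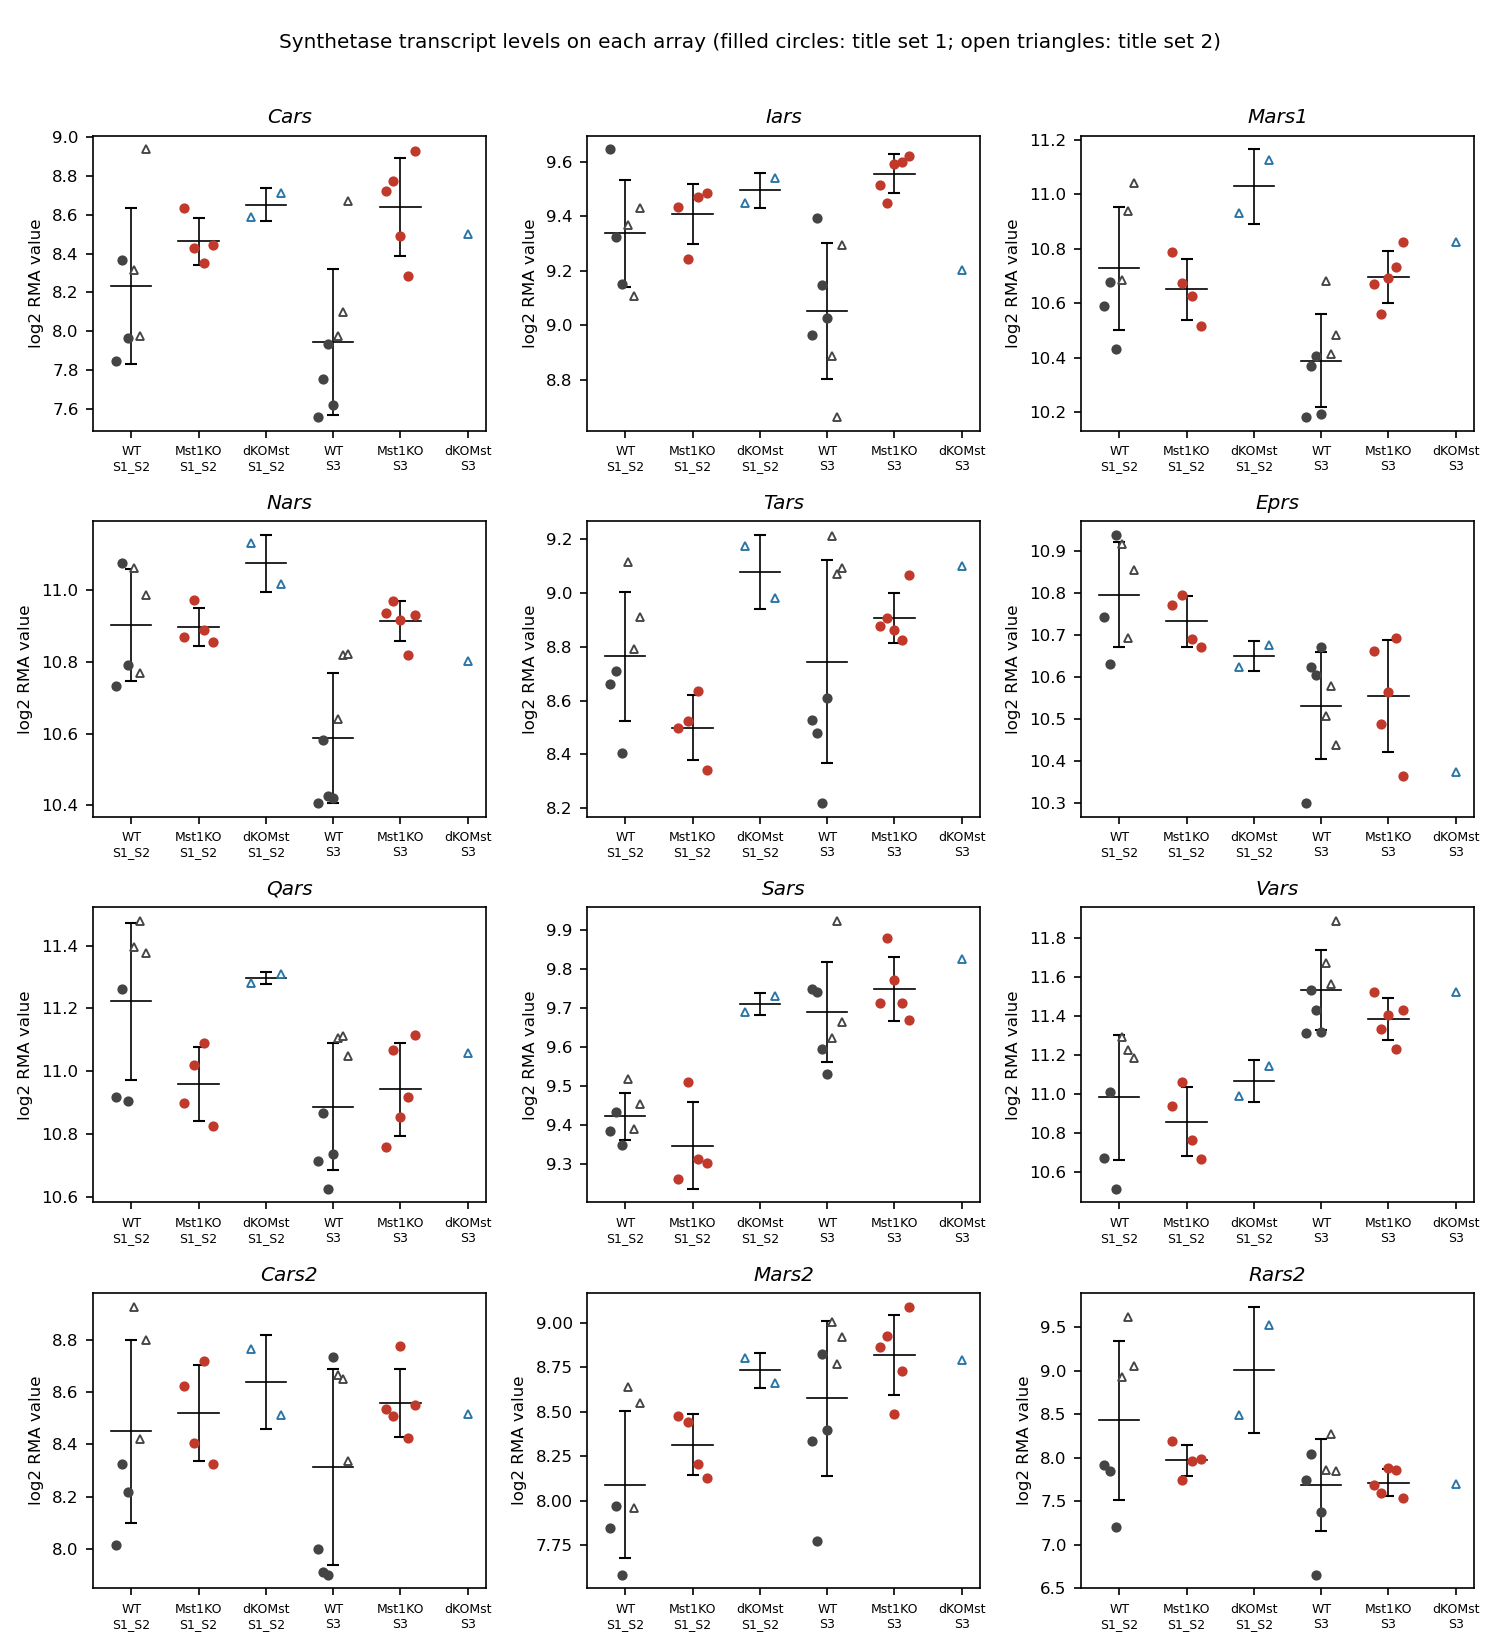
Log2 RMA value of 12 synthetase genes on each array, by group; filled circles are set 1, open triangles set 2, and lines with bars show the group mean and SD where a group has over 1 array. In the top panels the Mst1KO S3 circles lie above the WT S3 circles, and for Tars the WT S3 triangles reach the Mst1KO level.

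Several other measures moved with Mst1KO at S3, and their part in the synthetase result was not tested. Over all clusters, 3.73% were called higher and 2.64% lower in this comparison. Of 15 measured genes of G2 and M phase, 11 were higher and none lower (median difference 0.84), among them Mki67, the proliferation marker, at 1.42 ± 0.13 (SE; limma adjusted p = 1.36e-06), and Cdk1, the mitotic kinase, at 1.34 ± 0.21 (limma adjusted p = 0.000649). Of 16 G1 to S phase genes, 9 were higher and none lower (median 0.41). The mean centred value of the G2 and M genes lay between -0.76 and -0.34 on the Mst1KO S3 arrays and between -1.58 and -1.04 on the WT S3 arrays of set 1, while the 3 WT S3 arrays of set 2 lay at -0.85 to -0.78, just below the lowest Mst1KO array. The list of double-positive thymocyte markers had array means of 7.87 to 8.15 in Mst1KO S3 and 7.38 to 7.92 in WT S3. On all arrays of the group, 5 of 6 genes lay above the negative control median in Mst1KO S3 and 4 of 6 in WT S3. Cd8b1 of that list was higher (0.73 ± 0.18; limma adjusted p = 0.0183) and Cd4 was lower (-0.47 ± 0.11; limma adjusted p = 0.0126). Of 6 NK cell markers, Tyrobp (0.74 ± 0.11; limma adjusted p = 0.000487) and Eomes (0.67 ± 0.14; limma adjusted p = 0.00759) were higher and Ncr1 was lower (-0.99 ± 0.29; limma adjusted p = 0.0437), with array means of 8.33 to 8.63 in Mst1KO S3 and 8.17 to 8.59 in WT S3. Of 4 gamma-delta T cell markers, Cd163l1 was higher at S3 (0.82 ± 0.12; limma adjusted p = 0.000322), and the array means were 8.52 to 8.81 in Mst1KO S3 and 8.05 to 8.81 in WT S3. Cd24a, the marker of immature thymocytes, also passed as higher (limma adjusted p = 0.0415) while below the negative control median on every array. Y-linked signal was present on 3 of the 5 Mst1KO S3 arrays and on all 7 WT S3 arrays, and with those arrays only, 3 of the 5 calls remained, namely Cars, Mars1 and Nars.

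The mitochondrial enzymes gave no call in Mst1KO at S3 (limma, 0 of 13, beside 3.73% of all clusters higher and 2.64% lower). At an unadjusted p under 0.05, 2 passed, both higher, beside 23.6% of all clusters in either direction (2191 clusters higher and 3053 lower). Counts this small over 13 genes do not set the class apart from the other clusters. The 2 were Mars2, at 0.49 ± 0.16 (SE; limma adjusted p = 0.06), and Cars2, at 0.45 ± 0.14 (limma adjusted p = 0.055), the mitochondrial methionine and cysteine enzymes. The class median was 0.14 for the mitochondrial and 0.29 for the cytosolic enzymes, and within set 1 these were 0.14 and 0.25. The difference between the class medians was 0.15, between 0.09 and 0.20 when any 1 array was left out, and it has no test because members are not replicates. On its dimmest array each mitochondrial member lay 0.04 to 2.54 above the negative control median, and each cytosolic one 1.19 to 4.26. The median SE was 0.12 for the mitochondrial and 0.10 for the cytosolic members. The part of signal level in the gap between the classes was not tested. Cars2 read 8.53, 8.51, 8.78, 8.42 and 8.55 in Mst1KO S3 and between 7.90 and 8.73 in WT S3 of set 1, where 1 WT array, at 8.73, lay inside the Mst1KO range. For the same amino acid, the cytosolic estimate was the larger in 9 of 12 pairs. The median gap was 0.21. The pairs in which the mitochondrial estimate was the larger were arginine (Rars2 0.46, Rars -0.01), valine (Vars2 0.14, Vars 0.02) and methionine (Mars2 0.49, Mars1 0.43). The partners of the other called genes had estimates of 0.08 for Iars2, 0.28 for Nars2 and 0.15 for Tars2. Nars2 read between 7.48 and 8.55 in Mst1KO S3 and between 7.15 and 8.31 in WT S3, so its arrays overlapped over most of their range.

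**Figure D3:**
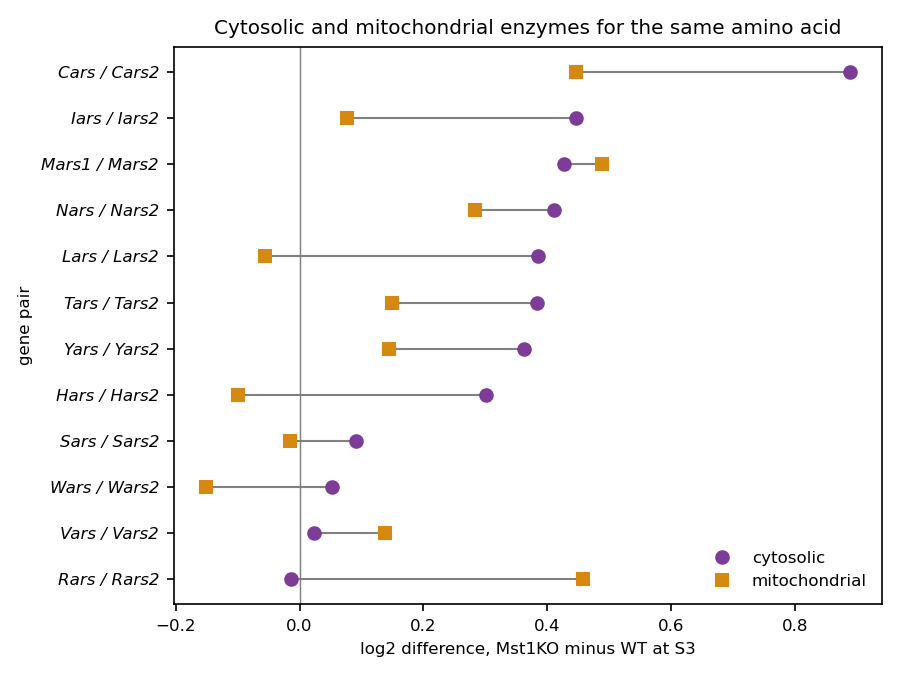
Fitted log2 difference of Mst1KO minus WT at S3 for 12 amino acids with both enzymes measured; circles are cytosolic and squares mitochondrial genes, joined by a line per amino acid. The circle lies to the right in 9 of 12 pairs, and the Cars circle lies farthest right at 0.89.

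Between the stages in WT mice, 9 of the 29 synthetases differed, 3 higher and 6 lower at S3 than at S1_S2, beside 16.9% of all clusters (8.18% higher and 8.75% lower). The 6 lower genes were the cytosolic Eprs, Iars, Mars1, Nars and Qars and the mitochondrial Rars2. The 3 higher genes were the cytosolic Vars and Sars and the mitochondrial Mars2. The median difference was -0.12 for the cytosolic and -0.12 for the mitochondrial enzymes, and 0.01 for all clusters. The estimate was below 0 for 23 of 29 members, against 48.5% of all clusters. In set 1 the stages did not overlap for 2 members higher and 3 lower (7.57% and 7.76% of all clusters), and in set 2 for 3 higher and 5 lower (13.4% and 12.6%).

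The multisynthetase complex held 4 of the 6 lower genes (Eprs, Iars, Mars1 and Qars) and none of the higher ones. The estimates of the 7 of its enzymes that are members were all below 0 (median -0.28). Enzymes that are not among the members, such as Dars, are not covered by these counts. Of the 9 cytosolic members outside the complex, 1 was lower (Nars) and 2 were higher (Sars and Vars), with a median of -0.08. This division was drawn up after the values were seen and has no test. The scaffold gene Aimp1 was lower too (-0.20 ± 0.07, SE; limma adjusted p = 0.045), the only call among the 3 scaffold genes. Farsb, a subunit of the cytosolic phenylalanine enzyme whose symbol lies outside the naming rule, was lower by -0.54 ± 0.09 (limma adjusted p = 0.000127), the only call among 6 such synthetase genes.

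Qars, the glutamine enzyme, read between 10.90 and 11.48 (median 11.32) on the 6 WT S1_S2 arrays and between 10.63 and 11.11 (median 10.87) on the 7 WT S3 arrays. The ranges overlap over both sets together but not within either set, where the differences were -0.29 and -0.33. The fitted difference was -0.31 ± 0.07 (SE; limma adjusted p = 0.00343). Mars1 read between 10.43 and 11.04 (median 10.68) in S1_S2 and between 10.18 and 10.68 (median 10.41) in S3, again without overlap within either set, and fell by 0.32 on the log2 scale (SE 0.08; limma adjusted p = 0.00345). Nars went from 10.73 to 11.08 (median 10.89) in S1_S2 to 10.41 to 10.82 (median 10.58) in S3, a difference of -0.30 ± 0.07 (SE; limma adjusted p = 0.00314). It was -0.41 in set 1 and -0.18 in set 2, and only in set 1 did the arrays not overlap. Eprs, which joins both glutamate and proline to their tRNAs, read between 10.63 and 10.94 (median 10.80) in S1_S2 and between 10.30 and 10.67 (median 10.58) in S3, and its difference was -0.26 ± 0.07 (SE; limma adjusted p = 0.013).

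The calls for Iars and Rars2 depended on single arrays. Iars was lower by -0.29 ± 0.10 (SE; limma adjusted p = 0.0417), and the call was lost without WT S1_S2 replicate 1, 4 or 6 or WT S3 replicate 1, 3, 4, 5 or 6, each left out alone (limma adjusted p between 0.0521 and 0.135). Rars2, the mitochondrial arginine enzyme, read 7.91, 7.85 and 7.20 in set 1 and 8.93, 9.62 and 9.05 in set 2 at S1_S2. At S3 it read 7.75, 8.04, 6.65 and 7.37 in set 1 and 7.85, 8.27 and 7.84 in set 2, so the stages overlapped in set 1 and were apart in set 2. Its fitted difference was -0.67 ± 0.22 (SE; limma adjusted p = 0.0347), with -0.20 in set 1 and -1.21 in set 2. The call was lost without WT S1_S2 replicate 1, 2, 4, 5 or 6 or WT S3 replicate 3, 5, 6 or 7 (differences -0.69 to -0.53, limma adjusted p between 0.0503 and 0.103).

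Vars, the valine enzyme, rose 1.49-fold with stage in WT. It read 10.67, 11.01 and 10.51 in set 1 and 11.29, 11.22 and 11.18 in set 2 at S1_S2, and 11.31, 11.53, 11.43 and 11.32 in set 1 and 11.67, 11.56 and 11.89 in set 2 at S3. Every S3 array lay above every S1_S2 array. The difference was 0.58 ± 0.09 (SE; limma adjusted p = 2.18e-05), passing within each set on its own (0.67, limma adjusted p = 0.00191, and 0.48, limma adjusted p = 0.03). Its mitochondrial partner Vars2 was at -0.20 ± 0.09 and not called (limma adjusted p = 0.164). Sars, the serine enzyme, read between 9.35 and 9.52 (median 9.41) in S1_S2 and between 9.53 and 9.92 (median 9.66) in S3, again without overlap, and its difference was 0.27 ± 0.06 (SE; limma adjusted p = 0.0034). Sars2 was at -0.10 ± 0.09 (limma adjusted p = 0.501). Mars2 read between 7.58 and 8.64 (median 7.96) in S1_S2 and between 7.77 and 9.01 (median 8.77) in S3, overlapping, with a difference of 0.52 ± 0.14 (SE; limma adjusted p = 0.00823). The Mars2 call was lost with no set term (0.48, limma adjusted p = 0.0712) and within each set alone (0.53 and 0.52, both with limma adjusted p = 0.111).

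**Figure D4:**
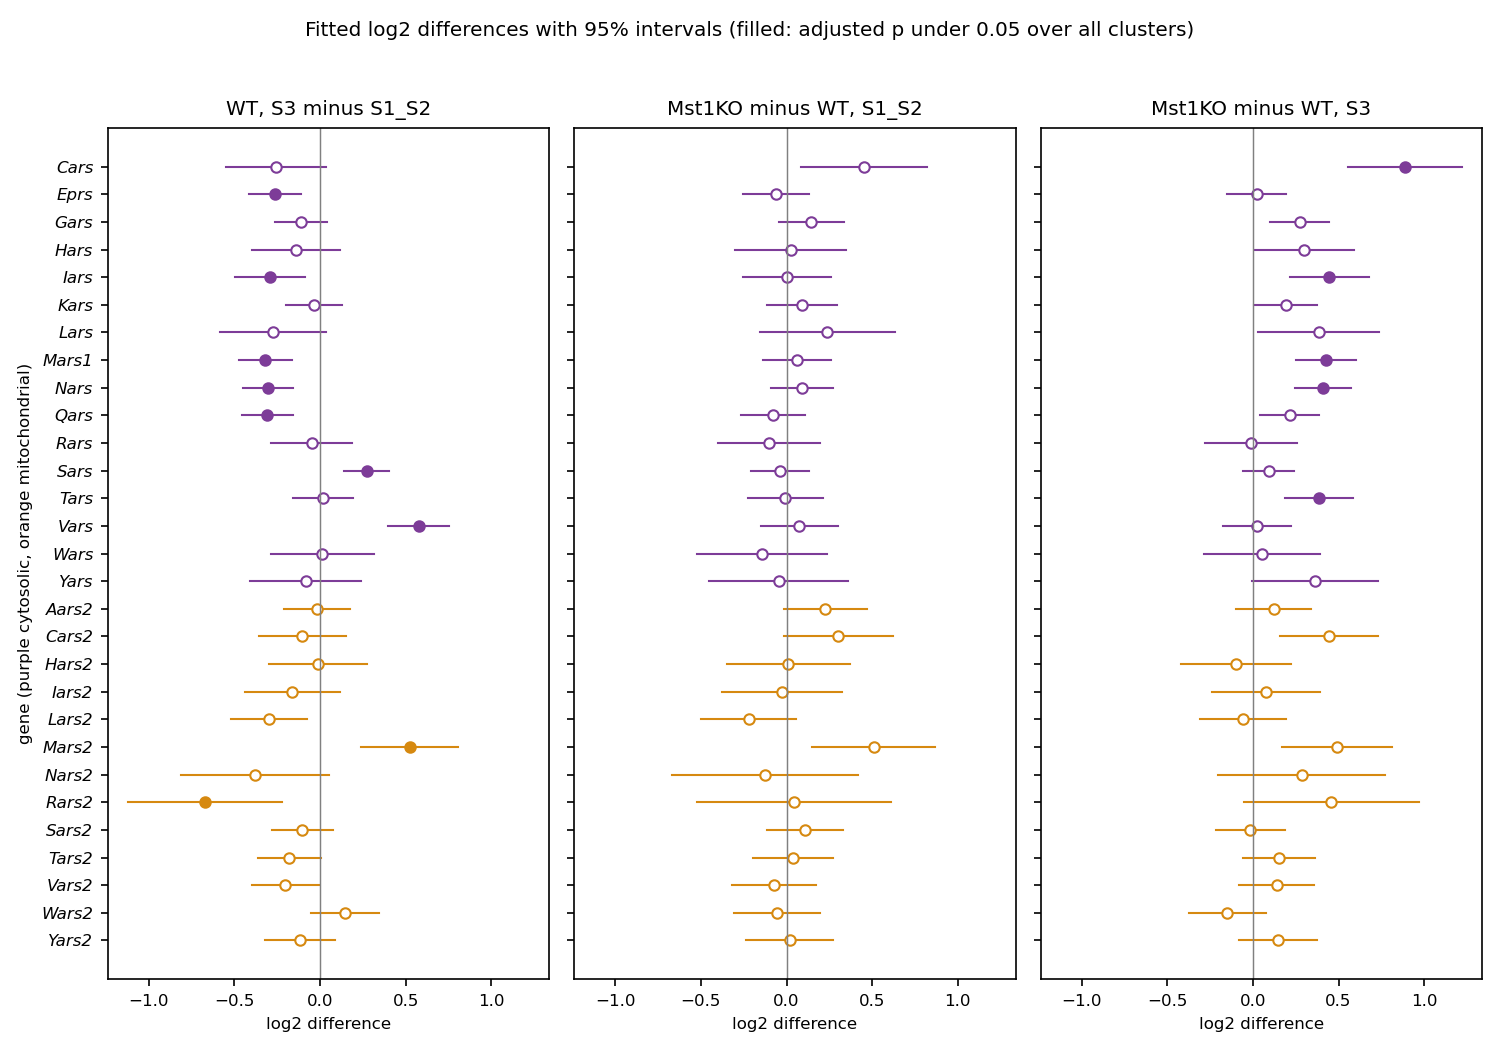
Fitted log2 difference of each synthetase (purple cytosolic, orange mitochondrial) with its 95% interval in 3 comparisons; filled points have an adjusted p under 0.05 over all clusters. The panel of the WT stages has 9 filled points, the Mst1KO panel of S1_S2 has 0, and that of S3 has 5, all to the right of 0.

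In Mst1KO mice 3 of the 29 members differed between the stages, all 3 higher at S3 (5.58% of all clusters were higher and 4.62% lower). These were Vars at 0.53 ± 0.10 (SE; limma adjusted p = 0.00115), Sars at 0.40 ± 0.08 (limma adjusted p = 0.000937) and Tars at 0.41 ± 0.10 (limma adjusted p = 0.00938), all measured within set 1. Tars read 8.50, 8.52, 8.63 and 8.34 in Mst1KO S1_S2, below each Mst1KO S3 array. Its call was lost, at the same difference, with no set term (limma adjusted p = 0.132) and with the set as a random block (limma adjusted p = 0.0617). The 6 genes lower with stage in WT had estimates here of -0.18 for Eprs, 0.15 for Iars, 0.05 for Mars1, 0.02 for Nars, -0.02 for Qars and -0.26 for Rars2, and none was called. The class medians were 0.10 for the cytosolic and -0.06 for the mitochondrial enzymes. For the same amino acid, the cytosolic estimate was the larger in 10 of 12 pairs, with a median gap of 0.23. A gap between the classes was thus not particular to Mst1KO against WT at S3. With the arrays that carry Y-linked signal only, 2 of S1_S2 and 3 of S3, all 3 calls were lost (limma adjusted p between 0.0871 and 0.106). Centring arrays on their median changed the calls over all clusters from 1240 higher and 1026 lower to 1544 higher and 722 lower, and 4 members were then called.

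At S1_S2 no member differed between Mst1KO and WT (limma, 0 of 29, with 0.522% of all clusters called), and 2 passed at an unadjusted p under 0.05 (8.65% of all clusters). They were Cars, at 0.45 ± 0.18 (SE; 95% interval 0.09 to 0.82; limma adjusted p = 0.418), and Mars2, at 0.51 ± 0.17 (95% interval 0.15 to 0.87; limma adjusted p = 0.284). Cars read 8.63, 8.43, 8.35 and 8.44 in Mst1KO S1_S2 and 7.85, 8.37 and 7.97 in WT S1_S2 of set 1, where the highest WT array reached the lowest Mst1KO array. The estimates of Iars, Mars1, Nars and Tars lay between -0.01 and 0.09. Median differences were 0.02 for the cytosolic enzymes, 0.02 for the mitochondrial ones and -0.01 for all clusters.

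Whether the Mst1KO difference itself changed with stage was tested as an interaction, and 0 of 29 members passed (limma, 0.158% of all clusters called). At an unadjusted p under 0.05, 5 members passed, each with a larger difference at S3. Over all clusters 9.49% passed in either direction, 946 with an estimate above 0 and 1161 below. The 5 members were Iars at 0.44 ± 0.15 (SE; limma adjusted p = 0.354), Tars at 0.39 ± 0.13 (limma adjusted p = 0.333), Mars1 at 0.37 ± 0.12 (limma adjusted p = 0.31), Nars at 0.32 ± 0.11 (limma adjusted p = 0.35) and Qars at 0.29 ± 0.11 (limma adjusted p = 0.413). The 95% intervals of these 5 ran from 0.06 at the lowest bound to 0.76 at the highest. The synthetase calls at S3 are therefore not shown to be restricted to that stage.

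In dKOMst at S1_S2 no member was called against WT (limma, 0 of 29, with 0.923% of all clusters called). At an unadjusted p under 0.05 there were 2 (10.6% of all clusters), Gars at 0.27 ± 0.11 (SE; limma adjusted p = 0.358) and Sars at 0.25 ± 0.10 (limma adjusted p = 0.319). The 2 dKOMst arrays read 9.69 and 9.73 for Sars, above the WT arrays of their set at 9.39 to 9.52. With so few arrays, 5 members were higher and 3 lower without overlap, as were 3477 and 2915 of all 22206 clusters. Mst1KO and dKOMst lie in different sets, so their difference rests on the set term as estimated from WT arrays. Again 0 of 29 members passed between them (limma, 0.171% of all clusters), with Sars alone at an unadjusted p under 0.05, where 8.5% of all clusters passed (0.29 ± 0.12, SE; limma adjusted p = 0.479). With 2 dKOMst arrays the 95% interval for Cars against WT ran from -0.26 to 0.64 and that for Mars1 from -0.08 to 0.40. For Iars it ran from -0.09 to 0.54. At the same stage the Mst1KO estimates were 0.45 for Cars, 0.06 for Mars1 and 0.01 for Iars, each inside its dKOMst interval. The Mst1KO estimates at S3 lie inside the Iars interval and outside those for Cars and Mars1. They belong to another stage, so they do not compare the 2 genotypes.

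The single dKOMst S3 array has no replicate and no test. Set beside the 3 WT S3 arrays of set 2, 3 members lay above all of them (Gars, Mars1 and Iars2) and 8 below all of them (Eprs, Hars, Kars, Lars, Vars, Yars, Hars2 and Rars2), where 26.6% of all clusters lay above and 26% below. The median difference over the members was -0.026, and 0.084 against all 7 WT S3 arrays. Cars read 8.50 on this array and 7.97 to 8.67 on the WT arrays, Mars1 read 10.83 and 10.41 to 10.68, and Tars read 9.10 and 9.07 to 9.21. Mars1 was the gene of these that stood outside the WT range.

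Other genes of the same supply line were taken from lists written from general knowledge. Between the WT stages 8.18% of all clusters were called higher and 8.75% lower. Among 17 kinases and factors of the integrated stress response, which slows translation and raises ATF4 protein, 3 were higher at S3 than at S1_S2 in WT and none was lower. These were Ppp1r15a, which reverses eIF2 phosphorylation, at 0.49 ± 0.06 (SE; limma adjusted p = 2.21e-06), Atf4 itself at 0.42 ± 0.12 (limma adjusted p = 0.0177) and Eif4ebp1, a brake on cap-dependent translation, at 0.25 ± 0.09 (limma adjusted p = 0.0492). The list's median was 0.03. Among 7 measured ATF4 targets of amino acid synthesis, 5 were lower in the same comparison and none was higher (median -0.47). They included Phgdh, which opens serine synthesis, at -0.83 ± 0.10 (limma adjusted p = 1.13e-06) and Psat1, the next enzyme of that route, at -0.64 ± 0.19 (limma adjusted p = 0.0244). The mitochondrial folate enzyme Mthfd2 was lower as well (-0.63 ± 0.13; limma adjusted p = 0.000995). Of 11 amino acid transporters, 5 were lower and 1 higher. Among the lower ones were Slc7a6 at -0.76 ± 0.14 (limma adjusted p = 0.000367) and Slc7a5, the large neutral amino acid carrier, at -0.52 ± 0.14 (limma adjusted p = 0.0115). In a list of MYC and mTORC1 regulators, 4 of 11 measured genes were higher and 2 lower (median 0.09).

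In Mst1KO at S3, 3.73% of all clusters were called higher than in WT and 2.64% lower. Of the 17 stress response genes, 2 were higher and none lower. They were Atf3 at 1.45 ± 0.29 (SE; limma adjusted p = 0.00539) and Eif4ebp1 at 0.37 ± 0.10 (limma adjusted p = 0.0255), and the list's median was -0.00. Asns, the asparagine synthetase that makes the substrate of Nars, was the 1 call among the 7 amino acid synthesis genes (0.71 ± 0.19; limma adjusted p = 0.0309; list median 0.31). Of the 11 transporters, Slc7a6 (0.58 ± 0.16; limma adjusted p = 0.0326) and the cationic amino acid carrier Slc7a1 (0.38 ± 0.10; limma adjusted p = 0.0322) were higher. Slc3a2, the shared heavy chain of several carriers, was lower (-0.26 ± 0.08; limma adjusted p = 0.0428). Dtd2, which removes wrongly attached amino acids from tRNA, was higher (0.32 ± 0.09; limma adjusted p = 0.0436), and the elongation factor subunit Eef1d was lower (-0.25 ± 0.07; limma adjusted p = 0.0276). None of the 3 scaffold genes, of the 6 synthetase genes outside the naming rule or of 4 genes for mitochondrial tRNA amidation and formylation was called. The 11 MYC and mTORC1 regulators gave no call either (median -0.01). At S1_S2 no gene of these lists was called in Mst1KO, where 0.522% of all clusters were. The estimates there of Asns (0.83 ± 0.21, SE; limma adjusted p = 0.0991) and Atf3 (1.15 ± 0.33; limma adjusted p = 0.15) were still of similar size to those at S3.

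Genes for proteins of the ribosome, to which the charged tRNA is supplied, were counted in the same way. Shares over all clusters were 8.18% higher and 8.75% lower between the WT stages, and 3.73% and 2.64% in Mst1KO at S3. Of 63 cytosolic ribosomal protein genes, 9 were lower and none higher between the stages in WT (median -0.06), and in Mst1KO at S3 1 was lower and none higher (median -0.07). Of 76 mitochondrial ribosomal protein genes, 21 were lower and 1 higher between the stages in WT (median -0.18), while 9 were higher and none lower in Mst1KO at S3 (median 0.18). The mitochondrial elongation factors Gfm1 (-0.57 ± 0.13, SE; limma adjusted p = 0.00208) and Gfm2 were the 2 calls among 4 such factors between the stages in WT, both lower. All 15 measured G2 and M phase genes were lower at S3 than at S1_S2 in WT (median -2.05), where the largest synthetase difference was the -0.67 of Rars2.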

How the data were processed

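The deposited series table holds log2 values for all 25 arrays, which the authors computed by RMA (Affymetrix Expression Console 1.1, per the submitters' processing notes), and these were used unchanged. Amplification and biotin labelling used NuGEN kits, per the labels' protocols. No genome build of the array is named in the sources used here. After 6640 control items were left out, 22206 clusters remained, of which 19572 carry 1 symbol. The limma model (version 3.58.1, R 4.3.3, functions lmFit and eBayes) had a mean for each of 6 groups, an additive set term and 18 residual degrees of freedom, and p-values were adjusted over all clusters, with calls under 0.05. Errors of differences are the model's SE. The script was tested on simulated data. The members, gene lists, motifs and tests were chosen with earlier results of these data known. Any member could be named, with array values for called members and their partners. From other lists up to 3 called genes with the largest change were eligible, and the text names part of them. Promoter sequences are from RefSeq (GRCm38.p6). Array medians lay between 7.28 and 7.39, replicate arrays correlated at r of 0.98 to 0.99 across clusters, and precision is limited by how few arrays a group has. Alternatives changed the set term, the samples fitted, the scaling, the filter on dim clusters, the variance model, sex and a pairing read from the titles, and left out each array in turn.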

Additional observations from a re-analysis of the deposited data

Results flagged for a closer look

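Of 116 sets of 4 to 10 replicate values (29 members in 4 groups), 2 held an array far from the others of its group, and chance sets about 1 in 20 apart. Both were Mst1KO S3 replicate 4. For Rars, the cytosolic arginine enzyme, it read 9.03 where the other 4 arrays read 8.75 to 8.81. For Wars, the cytosolic tryptophan enzyme, it read 10.03 where the others read 10.47 to 10.56. Neither gene was called in any comparison.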

How the results depend on the processing

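No called member changed sign under any setting tried, but some medians without a test did. With set 1 alone 2 members were called for the WT stages (Nars and Vars) and with set 2 alone 2 (Rars2 and Vars), against 9 with both, and each such fit has fewer arrays. For Mst1KO at S3 the 5 calls became 3 with no set term and 3 with only the arrays that carry Y-linked signal. They became 8 with only the clusters above the negative control median on 4 or more arrays, where fewer clusters are tested. For the stages in Mst1KO the 3 calls became 0 with the Y-linked arrays only. Leaving out each array in turn gave 7 to 9 members for the WT stages, 4 to 6 for Mst1KO at S3, 3 to 4 for the stages in Mst1KO and 0 for the other comparisons. The cytosolic minus mitochondrial median was not followed in this way for the stages in Mst1KO, the interaction or dKOMst against Mst1KO. Among the comparisons followed, it stayed above 0 only for Mst1KO at S3. It took both signs across settings and left-out arrays for Mst1KO at S1_S2, between the WT stages and for dKOMst at S1_S2. For the last it was -0.051, and lay between -0.137 (without WT S1_S2 replicate 5) and 0.029 (without dKOMst S1_S2 replicate 2). The dKOMst S3 median of -0.026 became 0.084 against all 7 WT S3 arrays, a setting chosen after seeing the data. The cause of these shifts was not tested. Calls over all clusters ranged from 1904 to 4011 (3760 as fitted) for the WT stages, from 475 to 1661 (1415) for Mst1KO at S3, from 953 to 2514 (2266) for the stages in Mst1KO, from 23 to 174 (116) for Mst1KO at S1_S2, from 33 to 343 (205) for dKOMst at S1_S2, from 0 to 61 (35) for the interaction and from 4 to 195 (38) between dKOMst and Mst1KO. Every member has 1 cluster, so averaging the clusters of a symbol gave the same values. The labels give no replicate numbers, but title numbers step by 16 (set 1) or 6 (set 2) between the stages of a genotype, which gives 11 possible pairs, a reading made after seeing the data. In the 10 that could be examined, deviations from the group means correlated at 0.06 to 0.17 across clusters, over 0.1 in 4, and each S1_S2 array correlated best with its own S3 partner (10 of 10). The arrays without Y-linked signal also fall into such pairs. This is a hint from the data, not the design. With the pair as a random replicate block 9 members passed between the WT stages, 5 in Mst1KO at S3, 4 for the stages in Mst1KO and 0 in the other comparisons. With the pair as a fixed replicate block and paired arrays only, 4 were called for the WT stages (Mars1, Qars, Sars and Vars) and 4 for the stages in Mst1KO. Groups of 1 and 2 dKOMst arrays limit what could be detected, and Mst1KO and dKOMst are compared only through the set term. No member was dim enough on any array to fall below the median of the negative control probes, but Wars2 and Rars2 came near it.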
